A study of Mus musculus with 19 samples.

Results

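The IL-1, IL-18 and IL-33 receptors were examined as a group of 9 genes of the IL-1 receptor family and its adaptor, chosen by symbol from the 24982 genes in the table of counts. They were Il1r1, Il1r2, Il1rl1, Il1rap, Il18r1, Il18rap, Il1rn, Sigirr and Myd88. All 9 were found and all 9 passed the filter on low counts.

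Bulk RNA-seq was run on 19 libraries of regulatory T cells (Tregs) in 4 groups. CD4+ FoxP3-GFP+ T cells were sorted by flow cytometry into CD44high and CD44low fractions from the axillary, brachial and inguinal nodes that drain the wound, and 50000 cells gave RNA for each sample. All mice were adult Foxp3DTR mice, in which cells that express Foxp3 carry a diphtheria toxin receptor with GFP, and they had either a burn (injured) or a sham procedure (uninjured). CD44high Tregs gave 4 libraries from uninjured and 4 from injured mice, and CD44low Tregs gave 5 and 6, with the cells of injured mice taken on day 7. The labels do not say whether a sample was 1 mouse or a pool, so p-values measure the spread between these samples. In the injured CD44low group, 3 labels carry a second number (1_2, 4_2 and 5_2), and whether libraries 1 and 5 share animals with 1_2 and 5_2 is not stated.

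Cytokines of the IL-1 family bind a chain that is specific to the ligand, which then joins an accessory chain, and the paired TIR domains recruit the adaptor MYD88, IRAK kinases and TRAF6 to activate NF-kB. IL1R1 is the signalling receptor for IL-1, IL1R2 binds IL-1 without signalling and acts as a decoy, and IL1RN blocks IL1R1. ST2, the product of Il1rl1, is the receptor for the alarmin IL-33 and is known from Tregs of barrier tissues, while IL18R1 and IL18RAP form the receptor for IL-18.

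The 5 receptor genes of the group on mouse chromosome 1 lie on the plus strand in the order Il1r2, Il1r1, Il1rl1, Il18r1 and Il18rap, with Il1rl2, the IL-36 receptor, between Il1r1 and Il1rl1. RefSeq windows of 300 bases (250 before to 50 after a start, GRCm38.p6) matched 8 of the 9 genes with 14 windows, and Sigirr had no entry. The windows of the 4 receptor genes that differed most between the CD44 fractions are shown so that their start regions can be compared. Il1rl1 has 2 starts and so 2 windows, and for Il18r1 window 3 of 3 is shown, chosen after its matches were seen. All lie on the plus strand. Capitals mark matches, on either strand, to the GATA motif AGATAA or the STAT motif TTCNNNGAA.
Il1r2, chr1:40085843-40086142: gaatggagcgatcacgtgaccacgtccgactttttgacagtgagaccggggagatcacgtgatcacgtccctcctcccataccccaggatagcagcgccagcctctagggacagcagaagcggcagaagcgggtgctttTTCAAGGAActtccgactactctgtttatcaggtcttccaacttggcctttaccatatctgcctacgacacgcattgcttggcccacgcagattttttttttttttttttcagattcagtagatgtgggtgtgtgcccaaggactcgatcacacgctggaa
Il1rl1 first start, chr1:40429320-40429619: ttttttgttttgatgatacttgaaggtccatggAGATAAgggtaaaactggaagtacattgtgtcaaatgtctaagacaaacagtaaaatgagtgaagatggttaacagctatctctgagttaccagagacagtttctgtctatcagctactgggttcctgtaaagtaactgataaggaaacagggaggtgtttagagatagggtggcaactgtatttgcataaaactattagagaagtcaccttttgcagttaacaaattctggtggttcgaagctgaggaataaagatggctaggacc
Il1rl1 second start, chr1:40439379-40439678: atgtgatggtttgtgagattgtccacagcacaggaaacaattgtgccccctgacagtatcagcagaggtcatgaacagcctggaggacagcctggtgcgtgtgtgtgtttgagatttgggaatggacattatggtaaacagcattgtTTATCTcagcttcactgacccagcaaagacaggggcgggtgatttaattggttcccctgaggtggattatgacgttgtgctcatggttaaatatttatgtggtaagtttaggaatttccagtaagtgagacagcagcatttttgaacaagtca
Il18r1 window 3, chr1:40465756-40466055: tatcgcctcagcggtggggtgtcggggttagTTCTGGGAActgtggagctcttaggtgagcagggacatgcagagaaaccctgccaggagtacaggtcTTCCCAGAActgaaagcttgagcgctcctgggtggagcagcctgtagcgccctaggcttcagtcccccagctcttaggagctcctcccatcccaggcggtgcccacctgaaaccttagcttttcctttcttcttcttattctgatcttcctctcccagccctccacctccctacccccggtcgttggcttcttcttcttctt
Il18rap, chr1:40515112-40515411: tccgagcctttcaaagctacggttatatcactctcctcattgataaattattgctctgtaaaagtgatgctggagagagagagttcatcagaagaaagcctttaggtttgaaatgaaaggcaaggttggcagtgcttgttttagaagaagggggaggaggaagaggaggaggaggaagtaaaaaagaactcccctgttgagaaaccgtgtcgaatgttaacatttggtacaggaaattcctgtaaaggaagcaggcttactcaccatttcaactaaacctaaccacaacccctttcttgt

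Both Il1rl1 windows held 1 GATA match, at -217 and -103 from the start, where 11.18% of all 32851 windows of this length held at least 1. The Il1r2 window held 1 STAT match at -111 and window 3 of Il18r1 held 2, while windows 1 and 2 of Il18r1 held none, against 8.298% of all windows with any. None of the 5 windows shown held the AP-1 motif TGANTCA, found in 7.808% of all windows, or the NF-kB motif, found in 4.505%. The Il18rap window held none of the 4 motifs. These motifs overlap in no match shown, and a match describes letters only.

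Library totals ran from 5582234 to 9433610 counts. Levels are given as CPM, counts scaled to one common library size, with TMM factors that lay between 0.970 and 1.04. The sort was visible in the RNA: Cd44 lay at 541 to 626 CPM in uninjured and 369 to 497 CPM in injured CD44high libraries, and at 102 to 156 CPM in CD44low libraries. Foxp3 was present in every library, at 47.7 to 181 CPM. Several genes listed as markers of other cells differed between groups. The summed level of 7 macrophage and dendritic cell markers was 71.9 to 148 CPM in uninjured CD44high and 19.8 to 39.3 CPM in uninjured CD44low libraries, and 96.7 to 244 and 33.4 to 154 CPM after injury. In edgeR's quasi-likelihood fit at an adjusted p under 0.05, all 7 were higher in CD44high cells of uninjured mice. In that comparison 24.7% of tested genes were called higher. Lyz2 and Itgam, 2 of 7, were higher in CD44high cells of injured mice, where 20.1% of tested genes were. The same 2 were higher in CD44low cells after injury, where 4.24% were. The 6 neutrophil markers summed to at most 0.500 and 1.69 CPM in uninjured CD44high and CD44low libraries, and to 2.12 to 20.2 and 0 to 30.4 CPM after injury, with S100a9 higher in both subsets. Of 6 markers of mast cells, basophils and ILC2, 2 were tested, Kit and Cpa3. Cpa3 was lower in CD44high than CD44low cells of uninjured mice (means 0.195 and 1.23 CPM). It rose after injury in CD44high cells, from 5 to 79 counts in all (log2 fold change 3.44, adjusted p = 0.0364 in edgeR). Kit was at means of 5.95 and 4.47 CPM there and was not called. Fcer1a had 0 counts in both uninjured groups, 10 in injured CD44high and 23 in injured CD44low libraries. Ms4a2 was at 0 in every library. B cell markers, 5 of 6 of them in the table, summed to 70.3 to 206 CPM, with Cd79b higher in uninjured CD44high cells. Of 5 CD8 and NK cell markers Klrb1c was higher in CD44high cells and after injury in CD44low cells (log2 fold change 3.00). Of 6 stromal markers Col1a1 was higher and Pecam1 lower in CD44high cells, and Pecam1 rose after injury in CD44high cells (log2 fold change 0.69). Pecam1 was at means of 202 and 193 CPM in uninjured and injured CD44low cells. In contrast, Pdgfra and Pdpn had 0 counts in every library. Cdh5 had 0 counts in CD44low cells, and 7 and 3 in uninjured and injured CD44high cells. Which cells carried Pecam1 was not tested. The part of such cells in the results was not tested.

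The first question was how CD44high and CD44low Tregs of uninjured mice differ. CD44high Tregs held much more RNA of 4 receptor genes: the IL-33 receptor Il1rl1 and the decoy Il1r2 were about equally raised, at 15.3-fold and 15.2-fold, the IL-18 accessory chain Il18rap at 13.3-fold and the IL-18 binding chain Il18r1 at 3.57-fold. Myd88 was 1.29-fold higher, and Il1r1, Il1rap, Il1rn and Sigirr did not pass the test. So 5 of 9 members were called, all higher, where 46.1% of the 11464 genes tested were called in this comparison and 24.7% were called higher. In bulk RNA, a larger share of cells with a transcript and more transcript per cell cannot be told apart.

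Il1rl1 was at 269, 229, 237 and 265 CPM in uninjured CD44high libraries 2 to 5, and at 16.1, 12.6, 16.2, 19.8 and 16.5 CPM in uninjured CD44low libraries 1 to 5. Each CD44high library was more than 10 times above each CD44low library. The log2 fold change was 3.94 (SE 0.201, adjusted p = 1.48e-13 in edgeR's quasi-likelihood fit). Il1r2 was at 179, 150, 165 and 188 CPM in the CD44high libraries and at 10.2, 9.61, 10.8, 14.1 and 11.3 CPM in the CD44low libraries. No libraries overlapped here either, and the log2 fold change was 3.93 (SE 0.173, adjusted p = 1.23e-14).

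The 2 chains of the IL-18 receptor were both higher but by different amounts. Il18rap was at 34.6, 40.7, 35.7 and 52.6 CPM in CD44high and at 5.94, 4.41, 1.99, 1.87 and 1.18 CPM in CD44low libraries. The lowest of these rested on 7 counts, and the log2 fold change was 3.73 (SE 0.298, adjusted p = 4.06e-10). Il18r1 was at 53.8, 47.8, 76.6 and 70.7 CPM against 13.4, 19.1, 13.3, 17.4 and 24.1 CPM. The groups were apart, with a log2 fold change of 1.84 (SE 0.191, adjusted p = 3.45e-08). In all, 4 members had groups that did not overlap, where 40.7% of tested genes did.

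Il1rap, the accessory chain that serves both the IL-1 and the IL-33 receptor, went the other way in its values without passing the test. It was at 22.1, 19.5, 32.5 and 28.8 CPM in CD44high and at 38.9, 29.6, 38.3, 31.0 and 41.9 CPM in CD44low libraries. The groups overlapped, and the log2 fold change was -0.48 (SE 0.221, adjusted p = 0.0790). It passed the threshold under 4 other settings (adjusted p 0.0246 to 0.0495) and without CD44high library 4 or injured CD44low library 5 (0.0475 and 0.0423). Reads of Il1rap could not be told from the antisense gene Gm20319 where their exons overlap, over 552 bases, if the counting ignored strand. The same holds for Myd88 and Acaa1a over 290 bases.

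Sigirr, a family member that damps TIR signalling, was at 159, 174, 132 and 126 CPM in CD44high and at 140, 138, 133, 120 and 129 CPM in CD44low libraries. The libraries were mixed in order, with a log2 fold change of 0.16 (SE 0.120, adjusted p = 0.284). Myd88 was at 149, 109, 143 and 126 CPM against 79.6, 108, 98.0, 114 and 111 CPM. These groups overlapped, and the log2 fold change was 0.37 (SE 0.122, adjusted p = 0.0166). Without CD44high library 2 the adjusted p was 0.0820, without CD44high library 4 it was 0.0569, and without CD44low library 1 it was 0.0587.

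Il1r1 and Il1rn, the signalling IL-1 receptor and its antagonist, were close to the floor. Il1r1 had counts of 0, 0, 5 and 2 in CD44high and of 0, 0, 0, 1 and 20 in CD44low libraries. One CD44low library, number 5, held nearly all the counts of its group, and the test gave an adjusted p of 0.402. Il1rn had counts of 12, 0, 0 and 14 in CD44high and of 3, 0, 2, 0 and 0 in CD44low libraries, with an adjusted p of 0.103. A count of 0 allowed up to 0.535 CPM in the shallowest of these libraries (3 counts), for counting error only.

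**Figure D1:**
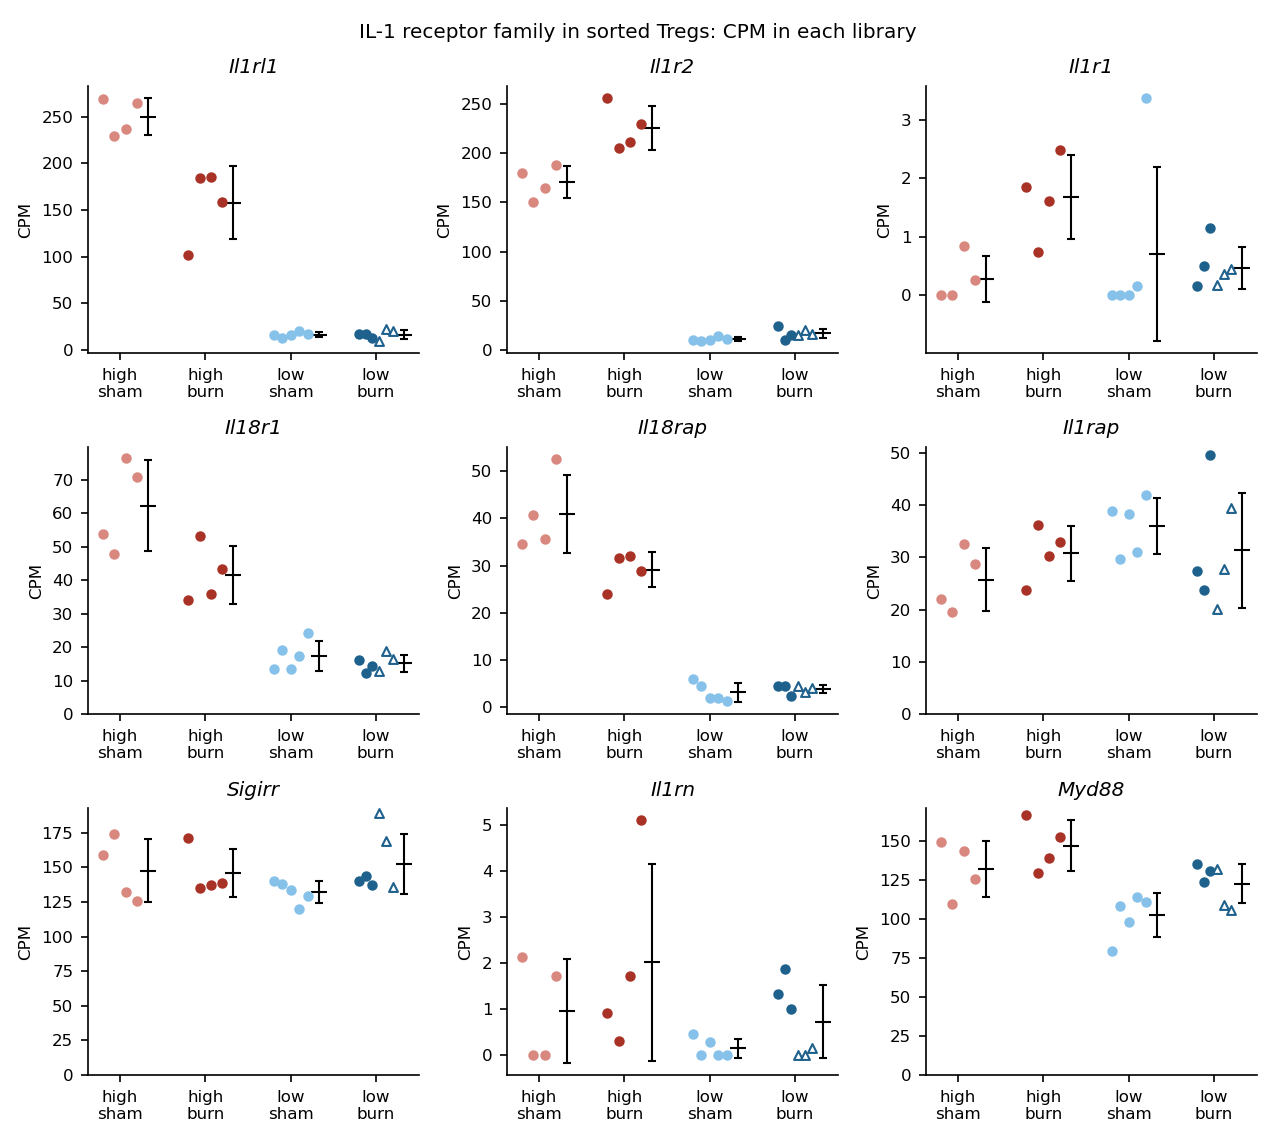
Level of each of the 9 genes in CPM (y axis, linear) in the 19 libraries, by CD44 fraction and sham or burn (x axis); points are libraries, open triangles the 3 libraries whose label has a second number, and bars beside them the mean and SD. Il1rl1, Il1r2, Il18r1 and Il18rap of CD44high libraries lie above every CD44low library, whereas Il1rap, Sigirr and Myd88 overlap and Il1r1 and Il1rn stay below 6 CPM.

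The same contrast in injured mice asked whether the difference between the subsets remained on day 7. It did for the 4 receptor genes: Il1r2 was 13.2-fold, Il1rl1 9.56-fold, Il18rap 7.67-fold and Il18r1 2.75-fold higher in CD44high Tregs. Thus 4 of 9 members were called, all higher, against 37.4% of tested genes called and 20.1% called higher, and the same 4 had groups that did not overlap, against 24.8% of tested genes.

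After injury Il1rl1 was at 102, 184, 185 and 159 CPM in CD44high libraries 2 to 5, and the 6 CD44low libraries had a lowest value of 9.65, a median of 17.2 and a highest value of 22.5 CPM. The CD44high libraries were all above the CD44low libraries (log2 fold change 3.26, SE 0.184, adjusted p = 1.72e-12). Il1r2 was at 255, 205, 211 and 229 CPM in CD44high libraries, and from 10.7 through a median of 15.9 to 24.7 CPM in CD44low libraries. Its log2 fold change was 3.72 (SE 0.157, adjusted p = 1.79e-14), and the fractions were again apart.

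Il18rap was at 24.0, 31.6, 32.0 and 29.0 CPM in injured CD44high libraries, and from 2.28 through a median of 4.21 to 4.48 CPM in CD44low libraries (log2 fold change 2.94, SE 0.271, adjusted p = 7.06e-09). Il18r1 was at 34.0, 53.1, 35.8 and 43.2 CPM, and from 12.3 through 15.2 to 18.7 CPM in CD44low libraries. Both IL-18 receptor chains were higher in every CD44high library, with Il18r1 at a log2 fold change of 1.46 (SE 0.182, adjusted p = 7.91e-07). Myd88 was at 167, 129, 139 and 152 CPM, and CD44low libraries reached from 105.3 through 127 to 135 CPM. It was not called (log2 fold change 0.26, SE 0.116, adjusted p = 0.0825).

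Il1rap and Sigirr were near equal in the 2 subsets after injury. Il1rap was at 23.8, 36.2, 30.2 and 32.9 CPM in CD44high and from 20.2 through 27.5 to 49.6 CPM in CD44low libraries. The log2 fold change was -0.03 (95% interval -0.46 to 0.40). Sigirr was at 172, 135, 137 and 138 CPM against 135 through 142 to 189 CPM, with a log2 fold change of -0.07 (95% interval -0.30 to 0.17). Il1r1 had counts of 14, 7, 15 and 19 in CD44high libraries and of 1 to 8 in CD44low libraries (adjusted p = 0.125), and Il1rn had 7, 3, 16 and 39 against 0 to 15 (log2 fold change 1.37, adjusted p = 0.240). With libraries 1_2, 4_2 and 5_2 alone as the injured CD44low group, which held 1 count of Il1rn in all, its log2 fold change was 4.77 (adjusted p = 0.0218).

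Il1rn was also read beside the macrophage and dendritic cell markers. Injured CD44high library 5 held the most Il1rn (39 counts) and the highest summed macrophage and dendritic cell level, 244 CPM. In the injured CD44low group the highest sum, 154 CPM, was in library 5. That library held 7 counts of Il1rn, where libraries 2 and 1 held 15 and 9. The genes most like Il1rn in log2 level over the 19 libraries were Plbd1, Lyz2 and Nadk (Pearson r 0.81, 0.80 and 0.77), given as a description. The part of these cells in Il1rn was not tested.

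The next comparison asked what injury did within CD44high Tregs. No member was called, against 2.38% of tested genes. DESeq2 called 1, where it called 476 of 11464 genes. The values nonetheless differed in direction between genes, with Il1rl1 lower in each injured library and Il1r2 higher in each. Il1rl1 had a mean of 250 ± 19.9 CPM (SD, n = 4) in uninjured and 158 ± 39.1 (SD, n = 4) in injured mice. The log2 fold change was -0.67 (SE 0.189, adjusted p = 0.0633 by edgeR).

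This value lay close to the threshold, and the call depended on the fit. DESeq2 gave Il1rl1 an adjusted p of 0.0244, and edgeR gave 0.0251 on the compared groups alone, 0.0194 with libraries 1 and 1_2 and libraries 5 and 5_2 of injured CD44low summed, and 0.0141 without the 3 libraries whose label has a second number. Leaving out injured CD44low library 1_2 gave 0.0291. With each library left out in turn, the log2 fold change stayed between -0.75 and -0.49.

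Il1r2 had a mean of 171 ± 16.5 CPM (SD, n = 4) in uninjured and 225 ± 22.5 (SD, n = 4) in injured CD44high Tregs, a log2 fold change of 0.40 (SE 0.160, adjusted p = 0.213). On the compared groups alone the adjusted p was 0.0288. Injured library 2 had at once the lowest Il1rl1, 102 CPM, and the highest Il1r2, 255 CPM. The 6 neutrophil markers summed to at most 0.500 CPM in uninjured and to 2.12 to 20.2 CPM in injured CD44high libraries. The lowest of the injured sums was in library 2. The highest was in library 3, whose Il1r2, at 205 CPM, was the lowest of its group. The part of such cells in the Il1r2 values was not tested.

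Il18r1 and Il18rap had lower means after injury, without passing the test. Il18r1 was at 62.2 ± 13.6 and 41.5 ± 8.67 CPM (SD, n = 4 each), a log2 fold change of -0.58 (SE 0.195, adjusted p = 0.126), with groups that overlapped. Il18rap was at 40.9 ± 8.25 and 29.1 ± 3.66 CPM, a log2 fold change of -0.49 (SE 0.269, adjusted p = 0.407), with every injured library below every uninjured one. In all, 3 members (Il1rl1, Il1r2 and Il18rap) had groups that did not overlap, against 13.3% of tested genes.

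Of the others, Myd88 had a log2 fold change of 0.15 (95% interval -0.11 to 0.42), Il1rap of 0.26 (95% interval -0.22 to 0.73) and Sigirr of -0.02 (95% interval -0.28 to 0.24). Il1r1 had 7 counts in all 4 uninjured libraries and 55 in the 4 injured ones (log2 fold change 2.53, SE 1.12, adjusted p = 0.275 in edgeR). Il1rn had 26 and 65 (log2 fold change 1.01, SE 0.993, adjusted p = 0.692).

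In CD44low Tregs injury raised 1 of the 9 members, Il1r2, where 7.6% of tested genes were called and 4.24% were called higher. Il1r2 had a mean of 11.2 ± 1.74 CPM (SD, n = 5) in uninjured and 17.1 ± 4.76 (SD, n = 6) in injured mice, and groups that overlapped: the injured libraries ran from 10.7 through a median of 15.9 to 24.7 CPM and the uninjured ones from 9.61 to 14.1 CPM. The log2 fold change was 0.61 (SE 0.163, a 1.52-fold difference, adjusted p = 0.0264 by edgeR). No member had groups apart in this comparison, against 4.68% of tested genes. At an unadjusted p under 1e-06 with a 2-fold change no member was called, against 0.122% of tested genes.

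The Il1r2 call depended on the libraries used. Without uninjured library 1, uninjured library 2 or injured library 1 the adjusted p was 0.0589, 0.0574 and 0.0604, and on the compared groups alone it was 0.0973. Neutrophils are known to express Il1r2. The 6 neutrophil markers summed to at most 1.69 CPM in uninjured CD44low libraries. In injured ones they summed to 0 to 30.4 CPM, with a median of 2.57 CPM. The highest of these sums was in injured library 2, whose Il1r2, at 10.7 CPM, was the lowest of its group. The part of such cells in the Il1r2 values was not tested.

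Il1rl1 stayed at 16.3 ± 2.56 CPM (SD, n = 5) and 16.5 ± 4.79 CPM (SD, n = 6) in CD44low cells, a log2 fold change of 0.02 (95% interval -0.37 to 0.40). Il18r1 had a log2 fold change of -0.21 (95% interval -0.58 to 0.16) and Il18rap of 0.30 (95% interval -0.33 to 0.93). Myd88 (0.26, adjusted p = 0.138), Sigirr (0.21, adjusted p = 0.228) and Il1rap (-0.20, adjusted p = 0.556) were not called either. Nor were Il1r1 (adjusted p = 0.785) and Il1rn (adjusted p = 0.252), on 1 to 8 and 0 to 15 counts per injured library.

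Whether injury acted differently in the 2 subsets was tested directly, as the difference of the 2 injury effects. No member was called, against 0.645% of tested genes, while 1 had an unadjusted p under 0.05. That was Il1rl1, whose injury effect was lower by 0.68 on the log2 scale in CD44high cells (SE 0.266, adjusted p = 0.309 in edgeR). For Il18rap the difference was -0.79 (SE 0.407, adjusted p = 0.497) and for Il1r2 it was -0.21 (SE 0.227, adjusted p = 0.812).

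**Figure D2:**
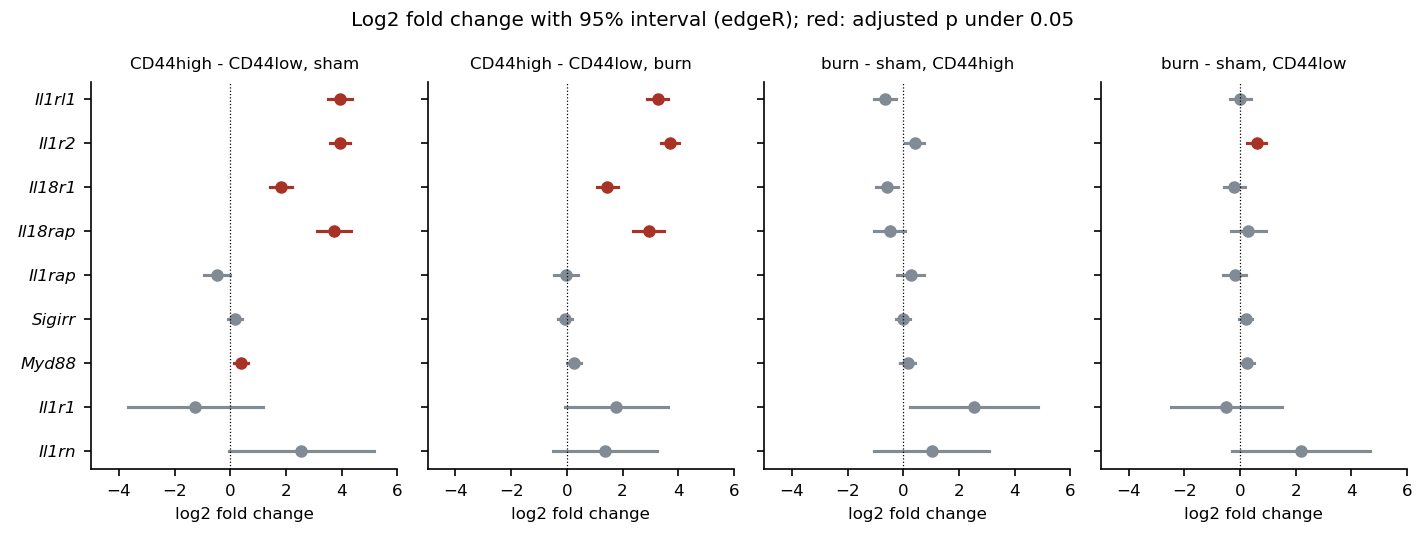
Log2 fold change (x axis) of the 9 genes (y axis) in 4 comparisons, with the 95% interval from edgeR; red marks an adjusted p under 0.05. The 4 receptor genes at the top lie well to the right of 0 in both CD44 comparisons, and among the injury comparisons Il1r2 in CD44low Tregs is the only one in red, though Il1rl1 and Il18r1 in CD44high Tregs lie about as far from 0 on the other side and the sparse Il1r1 and Il1rn have wide intervals.

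To compare levels between genes, CPM was divided by exon length. On that scale of CPM per kb, Il1r2 was the most abundant member in CD44high Tregs, with 89.4 ± 8.65 in uninjured and 118 ± 11.8 in injured mice (SD, n = 4 each). It stood at percentiles 95.03 and 96.3 of all tested genes. Myd88 and Sigirr followed in uninjured CD44high cells with 51.2 ± 6.98 and 48.6 ± 7.49, whose libraries overlapped. Il1rl1 came next with 36.3 ± 2.88. The order depends on the exon lengths used. In CPM not divided by length, Il1rl1 lay above Il1r2 in uninjured CD44high cells, at means of 250 and 171.

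In CD44low Tregs the order was led by Sigirr (43.4 ± 2.62 CPM per kb, n = 5) and Myd88 (39.7 ± 5.43), again with overlapping libraries, and Il1r2 followed at 5.87 ± 0.912. Il18r1 (3.63 ± 0.930), Il1rap (3.17 ± 0.469) and Il1rl1 (2.36 ± 0.372) were the next 3, with ranges that overlapped between neighbours. Il18rap was at 0.456 ± 0.298, and Il1r1 and Il1rn were below it in every group. The inhibitor and adaptor genes thus lay above all other members in CD44low cells, whereas in CD44high cells Il1r2 lay above both.

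**Figure D3:**
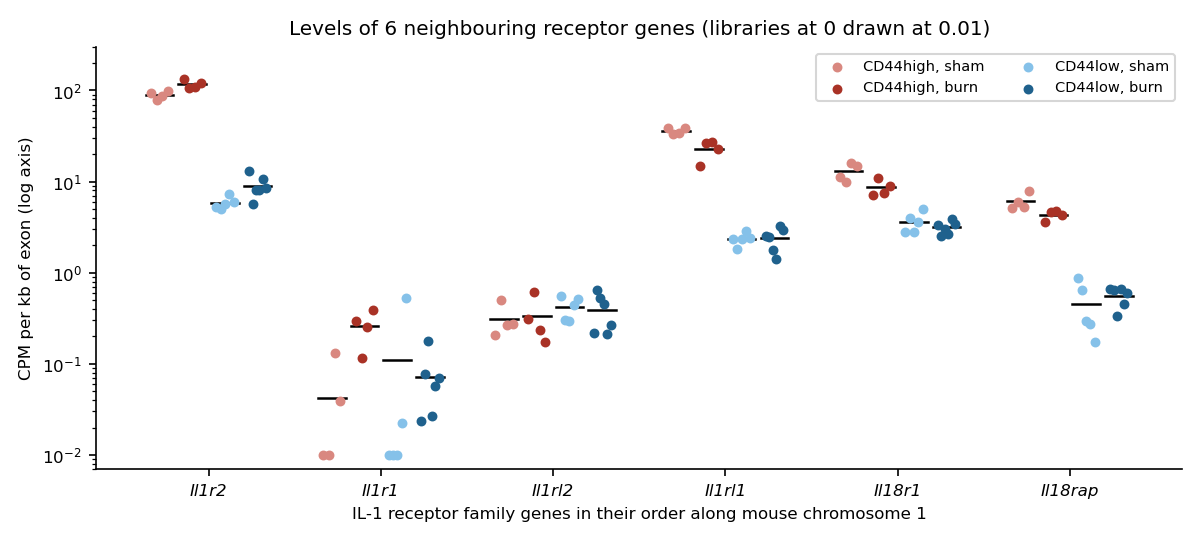
Level per kb of exon (y axis, log scale, CPM per kb) of 6 receptor genes in their order along chromosome 1 (x axis), in the 19 libraries by group; black lines are group means and libraries at 0 are drawn at 0.01. Il1r2, Il1rl1, Il18r1 and Il18rap separate the CD44 fractions, while the 2 genes between Il1r2 and Il1rl1, both at low levels, do not.

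In the middle of that row, Il1r1 had between 0 and 0.531 CPM per kb and Il1rl2, the IL-36 receptor gene, had between 0.173 and 0.640 CPM per kb over all libraries, with no separation of the CD44 fractions. The genes that separated them thus stood on both sides of 2 that did not.

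The balance between partner chains was compared as a share of the length-corrected level. ST2 RNA made up 94.1% ± 1.37 (SD, n = 4) of the sum of Il1rl1 and Il1rap in uninjured CD44high Tregs and 42.7% ± 4.85 (SD, n = 5) in CD44low Tregs. The groups did not overlap, with an exact permutation p of 0.00794 and an adjusted p of 0.0317 over 12 share tests, and the former was the smallest p this design allows. After injury the shares were 89.2% ± 1.42 (SD, n = 4) and 46.8% ± 10.1 (SD, n = 6), with an exact permutation p of 0.00476 (adjusted p = 0.0286). Il1rl1 itself was 15.3-fold higher in CD44high cells of uninjured and 9.56-fold higher in those of injured mice, while the Il1rap groups overlapped. Both separations of this share thus restate the Il1rl1 difference and are no further evidence. Within CD44high cells the 4 injured libraries were all below the 4 uninjured ones, at an exact permutation p of 0.0286 that is the smallest possible and an adjusted p of 0.0686.

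Il18rap made up 32.2% ± 5.49 (SD, n = 4) of the sum of Il18r1 and Il18rap in uninjured CD44high Tregs and 11.6% ± 7.93 (SD, n = 5) in CD44low Tregs (exact permutation p = 0.0159, adjusted p = 0.0476). After injury it made up 33.7% ± 3.86 (SD, n = 4) and 15.4% ± 4.42 (SD, n = 6), with an exact permutation p of 0.00476 (adjusted p = 0.0286). Both comparisons had groups apart, and the lowest CD44high library was at 24.96%. Leaving out any 1 of the 9 uninjured libraries raised the smallest p the design allows, and the adjusted p of both shares in uninjured mice was then 0.0536 to 0.0857, while the differences stayed at 50.6 to 53.6 percentage points for ST2 and 18.5 to 23.6 for Il18rap. The decoy Il1r2 made up 98.3% to 99.95% of the sum of Il1r1 and Il1r2 as group means, and none of its 4 comparisons was called. Its lowest library value was 91.8%, in uninjured CD44low library 5.

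Il1r2 and Il1rl1 were set side by side as a ratio per kb, with no test. The ratio was 2.46 (2.37 to 2.56) in uninjured CD44high and 2.496 (2.28 to 2.76) in uninjured CD44low Tregs, nearly the same although the levels differed more than 10-fold. It was 5.61 in injured CD44high Tregs, with libraries at 9.08, 4.03, 4.12 and 5.20, and 3.99 in injured CD44low Tregs, with libraries from 2.28 through a median of 3.91 to 5.81. All injured CD44high libraries were above all uninjured CD44high ones. This follows from the lower Il1rl1 and the higher Il1r2 in each injured library and is no further result. Without division by length the mean ratio was 0.68 in uninjured CD44high and 0.69 in uninjured CD44low Tregs. In injured mice it was 1.55 and 1.10.

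**Figure D4:**
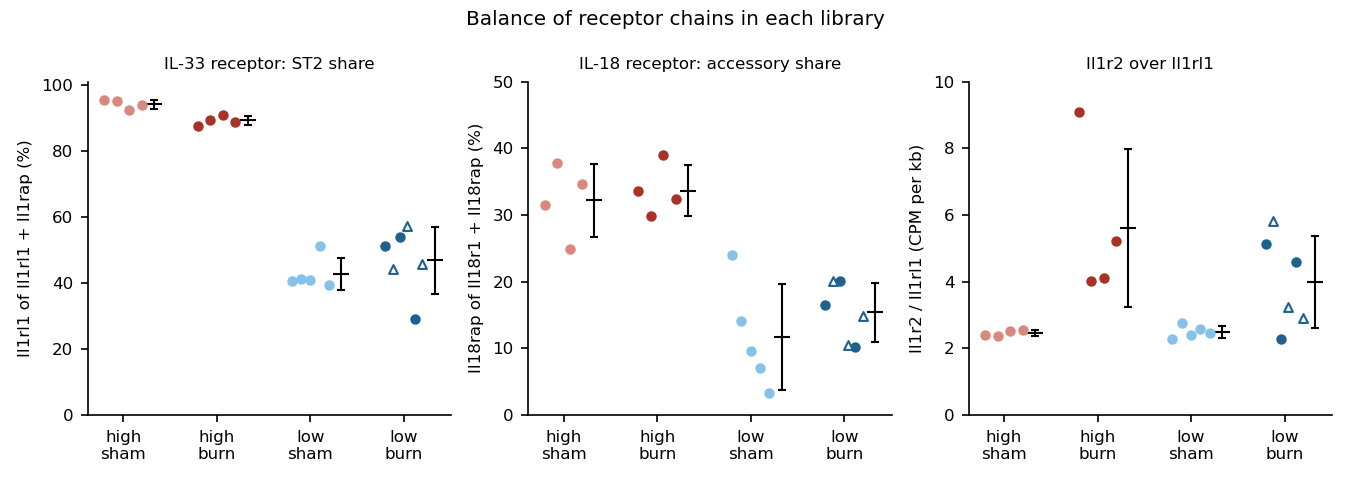
Share of Il1rl1 in the sum of Il1rl1 and Il1rap and of Il18rap in the sum of Il18r1 and Il18rap (%), and ratio of Il1r2 to Il1rl1 (CPM per kb), in the 19 libraries by group, with the mean and SD. CD44high libraries hold the higher shares. The ratio of injured CD44high libraries, 4.03 to 9.08, lies above that of uninjured ones, 2.37 to 2.56, which follows from the levels of its 2 genes.

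Over the 19 libraries the genes most like each receptor in log2 level were named by Pearson's r as a description, since the 4 groups alone raise such values. Il1rl1 was closest to Itgae (0.99), Osbpl3 and Tff1, Il1r2 to Icos (0.99), Stx11 and Mapre2, Il18rap to Zdhhc2 (0.98), Cdca8 and Cdkn2c, and Il18r1 to 1190002N15Rik (0.96), Wls and Bcl2l15. Among the members, Il1rl1 and Il1r2 had r = 0.96 over levels and 0.21 over deviations from the group means.

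The ligands, signalling proteins and other genes of the pathway were read from fixed lists. Of 9 ligands only Il18 passed the filter on low counts, and it was higher in CD44high Tregs (log2 fold change 4.07 in uninjured and 2.33 in injured mice, adjusted p = 0.000109 and 0.00532 in edgeR). Its levels were low, with means of 5.35 and 0.287 CPM in uninjured CD44high and CD44low libraries. In injured ones the means were 3.82 and 0.757 CPM. The uninjured CD44low libraries held 10 counts in all. Il33 had 0 counts in both uninjured groups, 15 in injured CD44high and 4 in injured CD44low libraries. Of 4 further receptors and binding proteins 2 were tested, and Il18bp, which binds and blocks IL-18, was lower in CD44high cells (log2 fold change -1.998 and -2.25).

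Of 19 proximal signalling genes 18 were tested, with 3 higher and 6 lower in CD44high cells of uninjured mice, 3 higher and 7 lower in injured mice, and median log2 fold changes of -0.20 and -0.23 beside 0.01 and 0.00 over all tested genes. These 9 and 10 of 18 stand beside 46.1% and 37.4% of tested genes called. Tirap, a bridging adaptor of MYD88 on Toll-like receptors, was higher (log2 fold change 2.17 and 2.52). Traf6, the ubiquitin ligase downstream of the IRAKs, was lower (-1.56 and -1.37), as was the kinase Irak2 (-0.94 and -0.35). Injury changed 0 of the 18 in CD44high cells, where 2.38% of tested genes were called. It changed 1 of the 18 in CD44low cells, where 7.6% were called. That gene was Irak2, which fell by 0.48 on the log2 scale (adjusted p = 0.0142 in edgeR).

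Of 5 ligand processing genes 4 were tested. All 4 were higher in CD44high cells of uninjured mice and 3 in those of injured mice, where 24.7% and 20.1% of tested genes were called higher. Casp1, the protease that matures IL-1 beta and IL-18, had log2 fold changes of 1.92 and 1.49, and Pycard, its adaptor, of 1.15 and 1.21, whereas the sensor Nlrp3 had 2 counts in all libraries together.

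All 12 of 12 genes known from ST2+ tissue Tregs were higher in CD44high cells in both comparisons, with medians of 3.07 and 2.37 on the log2 scale, where 24.7% and 20.1% of tested genes were called higher. They were led by Klrg1 (7.15 and 5.68) and included Rora, Prdm1 and Gata3. The list was chosen with earlier results of these data known. The paper had named Klrg1, Il10, Gata3, Prdm1, Rora, Irf4, Nfil3 and Maf among genes higher in CD44high Tregs. The 12 of 12 is therefore a description of the list and not independent evidence. Within CD44high cells injury lowered 1 of them, the repair factor Areg (log2 fold change -1.16, adjusted p = 0.0354), where 2.38% of tested genes were called. In CD44low cells it raised 3, Klrg1 (1.68), Batf (0.62) and Maf (0.76), where 4.24% were called higher.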

How the data were processed

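Counts per gene, as the authors deposited them, were raw STAR counts made in the VIPER workflow, with replicates kept apart and without normalization. The submitters' processing notes name STAR 2.5 and bcl2fastq 2.18, and list mm9 and mm10 without a role, so no coordinates are given for the counts. Those printed for start windows, and the gene order, are from the reference annotation. All 19 columns were mapped by their labels. Total exon lengths came from GENCODE, and promoter windows from RefSeq (GRCm38.p6).

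The software was R 4.3.3 with edgeR 4.0.16 and DESeq2 1.42.0, and Python 3.11.15, scipy 1.17.1 and matplotlib 3.10.9. The edgeR filter (minimum count 10) left 11464 genes. TMM factors, a group-means model over the 4 groups and edgeR's quasi-likelihood test (two-sided) gave p-values, adjusted by Benjamini-Hochberg over all genes tested and called under 0.05. edgeR was used as the main test for counts where the study named DESeq2, which is an alternative. Shares were tested by two-sided exact permutation tests. Similar genes were ranked by Pearson's r on log2 CPM with a prior count of 2. The fit was tested on simulated data, in which edgeR recovered 92% to 97% of 4-fold and 63% to 79% of 2-fold changes. Same-numbered samples were not treated as pairs, since in no pair of groups did every number deviate together.

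All 9 members were named in every comparison, with pathway genes from fixed lists and markers from fixed lists of Tregs, B cells, macrophages and dendritic cells, neutrophils, mast cells, basophils and ILC2, CD8 and NK cells, and stroma. The members and lists were chosen with earlier results of these data known. Other settings were RLE factors, no filter, the compared groups alone, a replicate block, the libraries with a second number summed, left out or used alone, a p under 1e-06 with a 2-fold change, each library left out, and, chosen after seeing the data, thinning to the smallest library. Gene counts do not separate the soluble from the membrane form of Il1rl1 or Il1rap. Reads carry no molecular identifiers, so floors cover counting error only.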

Additional observations from a re-analysis of the deposited data

Results flagged for a closer look

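Each group of 4 to 6 libraries was searched, gene by gene, for a library far from the others, in 36 groups, and chance alone marks about 1 in 20 of them. Uninjured CD44low library 5 stood apart with Il1r1 at 3.38 CPM (20 counts), where the next library was at 0.144 CPM. Injured CD44low library 5 stood apart with Il1r1 at 1.14 CPM (8 counts), next to 0.498 CPM. Injured CD44high library 2 stood apart with Sigirr at 172 CPM (1292 counts), next to 138 CPM. It was also the library with the lowest Il1rl1 and the highest Il1r2 of its group.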

How the results depend on the processing

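The subset differences of Il1rl1, Il1r2, Il18r1 and Il18rap kept their direction and their side of the threshold under every alternative run. The number of members called after injury in CD44high Tregs was 0 and became 1 with DESeq2, 1 with libraries 1 and 1_2 and 5 and 5_2 summed, 1 without the libraries with a second number, and 2 on the compared groups alone. Over all genes tested, these settings called 476, 476, 581 and 601 genes. With each library left out the number of members called lay between 0 and 1. In CD44low Tregs it was 1 and became 0 on the compared groups alone, 0 at p under 1e-06 with a 2-fold change and 0 with the replicate block, and lay between 0 and 1 with each library left out. With the block Il1r2 in CD44low Tregs had a log2 fold change of 0.54 (adjusted p = 0.0862) and Il1rap in uninjured mice one of -0.53 (adjusted p = 0.0307), and the block changed no other call. Same-numbered libraries correlated above 0.1 in 3 of 4 pairs between the injured subsets and in 1 of 4 between the uninjured ones. Without the libraries with a second number the share differences were 51.4 and 44.5 percentage points for ST2 and 20.6 and 18.04 for Il18rap, in uninjured and injured mice, each with an adjusted p of 0.0686, adjusted together with tests on fewer libraries. With each library left out they lay between 50.6 and 53.6 for ST2 and 18.5 and 23.6 for Il18rap in uninjured mice (adjusted p up to 0.0714 and 0.0857), and the injury difference of the Il18rap share in CD44high Tregs between -0.98 and 3.30 and of the decoy share in CD44low Tregs between -0.82 (without uninjured library 5) and 1.23. Signs turned for changes near 0 and for the sparse Il1rn. Il1rap in injured mice was 0.031 with those libraries summed, 0.052 with the second-number libraries alone, and -0.13 to 0.14 with each library left out. Sigirr in injured mice was 0.053 without the second-number libraries and -0.18 to 0.0047 with each library left out, and after injury in CD44high Tregs 0.0090 on the compared groups alone and -0.097 to 0.082. Il1rl1 in CD44low Tregs was -0.065 without the second-number libraries and -0.063 to 0.13 with each library left out. Il1rn, with the second-number libraries alone, was -1.21 for injury in CD44low Tregs and 2.23 for the difference between subsets. Il1r1 and Il1rn are limited by depth, at 0 to 39 counts a library. The cause of the other changes was not tested.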
